A study of Mus musculus with 8 samples.

Results

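The peaks of the transcription factor YY1 were set against those of the histone acetyltransferase P300 in mouse embryonic stem cells of a single genotype, Alkbh5 del-cIDR. The libraries were chosen by their labels alone: both YY1 libraries and both P300 libraries of the mutant cells, 4 of the 8 libraries in the series, with peaks on chromosomes 1 to 19 and X. All cells were of the established line E14TG2a, grown with the cytokine LIF, the MEK inhibitor PD0325901 and the GSK3 inhibitor CHIR99021, so mutant and wild-type (WT) libraries share that culture. WT cells, with 2 libraries per antibody, enter only where the same difference between antibodies is set beside its WT value. The series title spells out IDR as intrinsically disordered region, while the c is not explained in the labels. The labels do not say how many clones carry the deletion, or whether the replicates came from separate cultures, so every p reflects only how far these libraries vary, and that variation may be technical. Binding was mapped by CUT&RUN on isolated nuclei, in which an antibody guides a nuclease that cuts out the DNA beside its target.

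YY1 is a zinc-finger protein that recognises a short DNA motif, sits at many active promoters and enhancers, and can pair with itself to hold such elements together in loops. P300, encoded by Ep300, does not read a DNA motif of its own. It is brought in by transcription factors and acetylates histones, including lysine 27 of histone H3, and its peaks are often used to find enhancers. ALKBH5 removes the N6-methyl mark from adenosines in RNA.

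The data were 1 peak list per library. The mutant YY1 lists held 9167 peaks (replicate 1) and 15517 peaks (replicate 2), and the mutant P300 lists held 1322 and 1286. The lists carry no read totals, so the depth behind each is unknown, and absence from a list means that no peak passed the authors' threshold, which does not show that the site was unbound. The weakest peak of every list had a −log10 q of 1.30. Median fold enrichment, the authors' ratio of signal at the summit to background, was 5.08 and 5.02 for YY1 and 5.05 and 5.03 for P300. Folds are given as each list's own values, since depth and any control are unknown, and are not compared between antibodies. The annotation at hand is on another genome build than the peaks, so regions are given by GRCm39 position, and genes, promoters and motif letters were not used here.

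YY1 was called at about 9 times as many places as P300 in the mutant cells. The ratio of geometric means was 9.15, a log2 difference of 3.19, and both YY1 lists were longer than both P300 lists. The exact two-sided permutation p was 0.333, the smallest that 2 libraries against 2 allow (6 assignments). The same log2 difference was 1.26 in WT cells, where YY1 had 3519 and 5833 peaks and P300 1452 and 2474. The difference between genotypes was 1.94, with an exact permutation p of 0.0556 over 36 assignments, the smallest these allow, and 0.148 after Benjamini-Hochberg adjustment over the 32 comparisons of genotypes.

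YY1 peaks were also wider. Median widths were 278 and 227 bp for YY1 and 160 and 161 bp for P300, means of 252.5 ± 36.1 bp and 160.5 ± 0.707 bp (SD, n = 2 each). The difference of 92 bp was larger than the spread within either antibody, with an exact permutation p of 0.333. The shortest peak differed between lists, at 164 and 134 bp for YY1 and 122 and 123 bp for P300, and whether the peak caller's minimum length set part of the width difference was not tested. Relative to the shortest peak of its own list, the median was 1.70 and 1.69 times as wide for YY1 and 1.31 times for both P300 libraries.

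Wide peaks were a larger share of the YY1 lists. Of the YY1 peaks, 1442 (15.7%, Wilson 95% interval 15.0 to 16.5) in replicate 1 and 1828 (11.8%, 11.3 to 12.3) in replicate 2 were wider than 500 bp. For P300 these were 23 (1.74%, 1.16 to 2.60) and 21 (1.63%, 1.07 to 2.48). Peaks wider than 1 kb numbered 70 and 107 for YY1 and 4 in each P300 list. The longest peaks of the mutant lists were nonetheless P300's, at 3013 and 2284 bp against 1968 bp in both YY1 lists. Both P300 peaks lay in 1 region, chr17:40153888-40159709, which all 8 libraries of the series called. In WT cells the order was the reverse, with longest peaks of 4371 and 4155 bp for YY1 and 1312 and 1441 bp for P300.

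Longer lists reach weaker peaks, so each list was also reduced to its 1286 peaks of highest −log10 q. This cut the YY1 lists from 9167 and 15517 peaks but left the P300 lists, with 1322 and 1286, nearly whole. All of the YY1 peaks kept had a −log10 q of at least 5, against 40.3% and 44.5% of the P300 peaks kept. Strong YY1 peaks were thus set against nearly all P300 peaks. In these lists, median YY1 widths were 479.5 and 509 bp and median P300 widths 161 bp in both libraries. The difference was 333.25 bp, and 47.4% and 51.6% of the YY1 peaks were wider than 500 bp. The strongest YY1 peaks were thus wider than the YY1 list as a whole. At equal list length the WT difference was 220.25 bp, and the mutant difference exceeded it by 113 bp, with an exact permutation p of 0.0556 (adjusted 0.148). The WT YY1 lists, with 3519 and 5833 peaks, were cut less than the mutant ones, and the part of this in the excess was not tested. With whole lists the width difference was instead 115.5 bp in WT, 23.5 bp more than in the mutant, with an exact permutation p of 0.667.

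**Figure D1:**
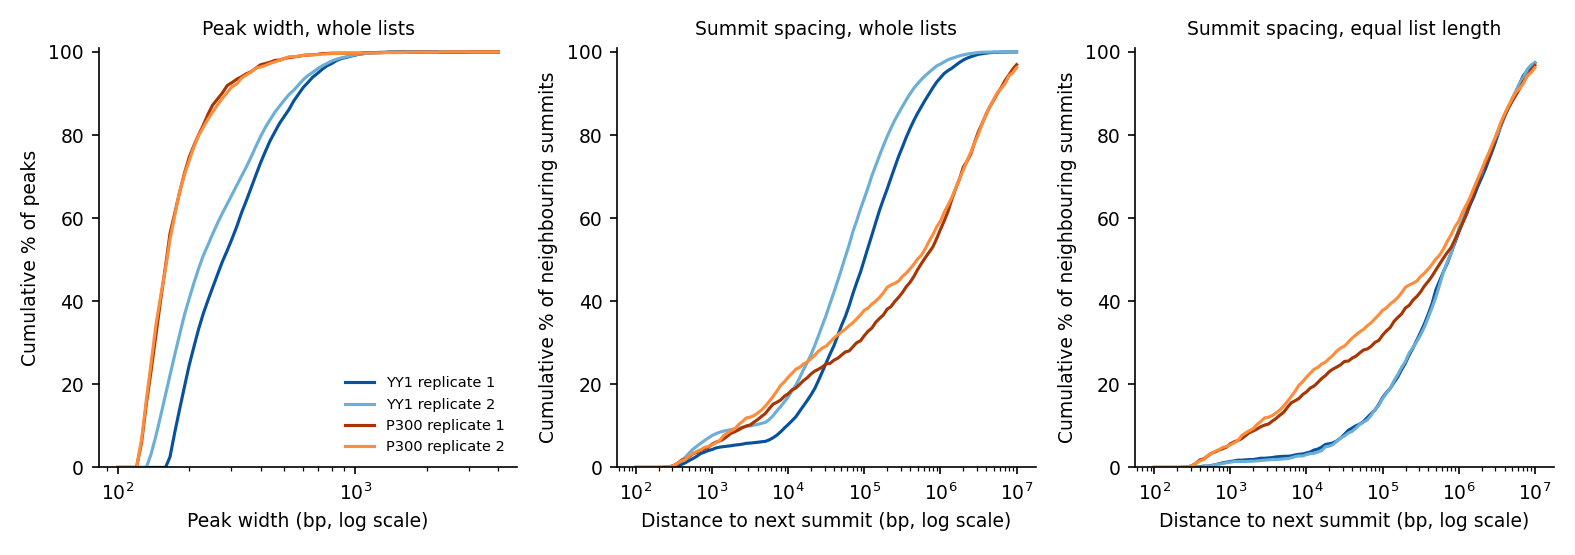
Cumulative share of peaks by width in bp (whole lists), and of neighbouring summits by spacing in bp (whole and equal-length lists), on log axes, for the 4 mutant libraries. The YY1 width curves lie to the right of the P300 curves, with medians of 278 and 227 bp against 160 and 161 bp, while the order of the spacing curves at their medians changes between whole and equal-length lists.

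Neighbouring YY1 summits lay closer together than neighbouring P300 summits when whole lists were used. The median distance between neighbours on a chromosome was 99.9 and 54.9 kb for YY1 and 602 and 495 kb for P300. YY1 spacing was 0.136 times that of P300, a log2 difference of −2.88 with an exact permutation p of 0.333. The order differed at equal length, with 1286 peaks each. The medians were then 742 and 727 kb for YY1 and 608 and 495 kb for P300, a log2 difference of 0.42 in the other direction. The log2 difference was 1.37, also in that direction, when only peaks of −log10 q 5 or higher were used. The YY1 lists then still held more peaks, 3686 and 4933 against 518 and 572 for P300.

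Close neighbours told the antibodies apart in another way. With equal-length lists, 3.48% and 3.08% of neighbouring YY1 summits were within 10 kb, against 18.2% and 21.7% of neighbouring P300 summits. P300 summits were therefore gathered in groups while their median spacing stayed wide. The difference of −16.7 percentage points had a WT counterpart of −15.0 points, and the exact permutation p of the difference between genotypes was 0.444.

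Part of the P300 grouping lay in 13 windows of 1 Mb, chosen because all P300 libraries of the series had 10 or more peaks there. They held 287 (21.7%) and 327 (25.4%) of the mutant P300 peaks but only 136 (1.48%) and 150 (0.967%) of the YY1 peaks. Outside them, with equal-length lists of 959 peaks, 7.35% and 8.41% of neighbouring P300 summits and 2.45% and 1.81% of neighbouring YY1 summits were within 10 kb. With whole lists outside the windows the order was the reverse, with 10.1% and 16.9% of neighbouring YY1 summits and 6.995% and 8.413% of neighbouring P300 summits within 10 kb. The higher share of close P300 neighbours outside the windows was thus seen at equal length and not with whole lists. The log2 difference in median spacing at equal length outside the windows was −0.31, the direction of the whole lists. Since the windows were chosen for their P300 peaks, their high P300 share is a description. The combination of equal length with the windows left out was added after the data were seen.

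Most YY1 summits were far from any P300 summit. The median distance from a YY1 summit to the nearest P300 summit was 545 kb (YY1 replicate 1 to P300 replicate 1), 663 kb (1 to 2), 554 kb (2 to 1) and 689 kb (2 to 2). A P300 summit lay within 500 bp of 3.92% (3.54 to 4.33), 3.87% (3.50 to 4.29), 3.24% (2.97 to 3.53) and 3.14% (2.88 to 3.43) of the YY1 summits, in the same order. These 4 pairings share libraries and are not replicates. Within 10 kb the share was 5.02% to 5.96%, and within 100 kb 15.0% to 18.1%. Most YY1 summits with P300 inside 10 kb thus had it inside 500 bp.

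From the P300 side the distances were shorter. A YY1 summit of replicate 1 was at a median of 16.3 kb from P300 replicate 1 and 14.1 kb from P300 replicate 2, and a YY1 summit of the longer replicate 2 list at 5.15 and 4.04 kb. Shares of P300 summits with YY1 within 500 bp were 27.8% and 28.1% for YY1 replicate 1 and 37.0% and 37.8% for YY1 replicate 2. Within 10 kb they were 44.5% and 46.0%, and 56.4% and 60.0%. The YY1 list a P300 summit was measured against was longer in each case than the P300 list it came from.

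With 1286 peaks in each list, the shares within 500 bp were similar in both directions. From YY1 they were 7.78% to 8.48% and from P300 8.32% to 8.86%. Median distances were 485 to 583 kb from YY1 to P300 and 296 to 343 kb from P300 to YY1. Between replicates of YY1 the median was 0.0775 kb, with 65.8% and 65.9% of summits within 500 bp, while between P300 replicates it was 28.5 and 12.2 kb, with 38.5% within 500 bp. At this equal length, coincidence between antibodies was thus well below that between replicates of either. P300 replicates also coincided less with each other than YY1 replicates did. These lists hold the strongest YY1 peaks but nearly all P300 peaks. With whole lists, the shares within 500 bp were 66.0% and 40.4% between YY1 replicates and 37.5% and 38.6% between P300 replicates. P300 summits of replicates 1 and 2 then had YY1 replicate 2 within 500 bp at similar shares, 37.0% and 37.8%. For the shorter YY1 replicate 1 list these were lower, 27.8% and 28.1%. Within 10 kb, 56.4% and 60.0% of P300 summits had YY1 replicate 2, against 45.5% and 49.2% for the other P300 replicate.

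The share of YY1 summits near P300 was also compared with WT cells. Over whole lists the mean of the 4 pairings was 3.54% in the mutant and 7.75% in WT, a difference of −4.21 percentage points with an exact permutation p of 0.0556 over 36 assignments (adjusted 0.148). At equal length the means were 8.15% (7.78 to 8.48) and 9.62% (9.41 to 10.2), a difference of −1.48 points with an exact permutation p of 0.333. The difference was smaller once the lists had the same length.

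**Figure D2:**
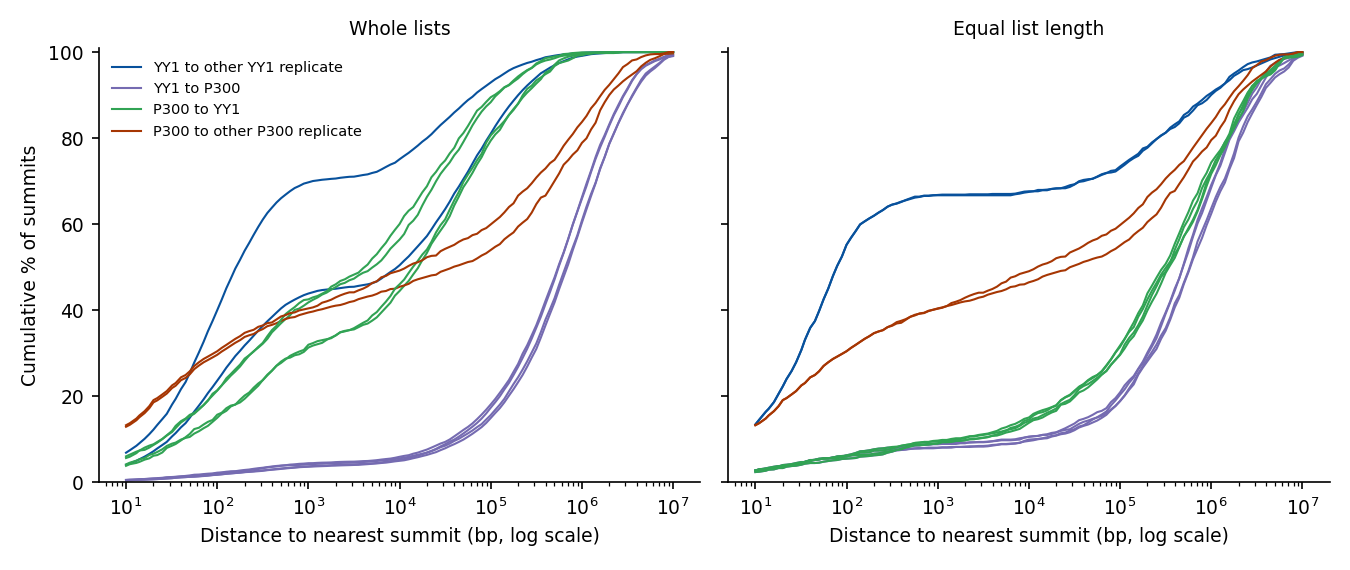
Cumulative share of summits by distance to the nearest summit in bp (log axis), between YY1 and P300 and between replicates of an antibody in mutant cells. At 500 bp the equal-length curves between antibodies reach 7.78% to 8.86%, against 38.5% between P300 replicates and 65.8% to 65.9% between YY1 replicates.

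Merging all peaks of the 4 mutant lists that shared at least 1 bp gave 20246 regions. YY1 and P300, at least 1 library of each, met in 729 of them (3.60%). All 4 libraries held 134 regions (0.662%). Both YY1 libraries and no P300 library held 5287 (26.1%), and both P300 libraries and no YY1 library held 228 (1.13%). The remaining regions were mostly called in a single library, 12831 in a YY1 library alone and 1171 in a P300 library alone.

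The overlap was a small share of the YY1 regions and a larger share of the P300 regions. Of 5666 regions held by both YY1 libraries, 134 were held by both P300 libraries (2.36%, 2.00 to 2.79) and 379 by at least 1 (6.69%, 6.07 to 7.37). Of 457 regions held by both P300 libraries, 134 were held by both YY1 libraries (29.3%, 25.3 to 33.7) and 229 by at least 1 (50.1%, 45.5 to 54.7). The YY1 share depended on which libraries had to hold a region: it was 1.28% without YY1 replicate 1, 4.50% without P300 replicate 1 and 4.54% without P300 replicate 2. Fewer required libraries make these definitions looser by construction.

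Regions called in both libraries of an antibody also met the other antibody more often than regions called in only 1. For YY1, P300 was present at 2.62% (2.13 to 3.20) of the regions of replicate 1 alone and 2.67% (2.37 to 3.01) of those of replicate 2 alone, against 6.69% of regions in both. For P300, YY1 was present at 30.3% (27.3 to 33.5) and 29.5% (26.5 to 32.8), against 50.1%. Regions of all 8 libraries are in both lists by definition, and without them the last share was 39.7% (34.9 to 44.7). Both libraries held 30.1% of all YY1 regions and 21.5% of all P300 regions.

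Much of the common ground was a set that every library of the series called. Of the 134 regions, 76 (56.7%, 48.3 to 64.8) were held by all 8 libraries, both antibodies and both genotypes, and 58 were not. With regions of all 8 libraries left out, both P300 libraries were present at 58 of 5589 YY1 regions (1.04%, 0.804 to 1.34), and both YY1 libraries at 58 of 378 P300 regions (15.3%, 12.1 to 19.3). Regions of all 8 libraries hold both antibodies by definition, so leaving them out lowers both shares by construction. With the 13 crowded windows also left out, 49 of 231 P300 regions (21.2%, 16.4 to 26.9) were held by both YY1 libraries and 116 of 231 (50.2%) by at least 1.

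Equal list lengths left fewer regions of all 4 libraries. There were 61, which made up 7.21% (5.65 to 9.15) of the regions of both YY1 libraries and 13.4% (10.6 to 16.8) of those of both P300 libraries. Regions of all 8 libraries accounted for 50 of the 61 (82.0%). The WT libraries, reduced to the same 1286 peaks, gave 70 such regions, 8.73% of YY1 and 14.4% of P300 regions, a difference between genotypes that was not tested.

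In the YY1 lists, overlap went along with how strong a peak was in its own list. Ranked by −log10 q and divided into deciles, the YY1 regions of replicate 1 held P300 at 1.10% in the lowest decile and 12.0% in the top decile, and those of replicate 2 at 0.974% and 10.2%. Without regions of all 8 libraries the top deciles held P300 at 6.64% and 6.86%. Leaving out that set removes regions with P300 by construction, and a less steep gradient along the YY1 lists was still present. Median width rose along the same deciles, from 205.5 to 513 bp in replicate 1 and from 164 to 499 bp in replicate 2. Wider regions offer more bases to overlap, and the part of width in this gradient was not tested.

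In the P300 lists the top decile held YY1 most often, without a steady gradient below it. YY1 was present at 26.0% of the lowest decile of P300 replicate 1, 31.3% of the ninth and 62.9% of the top decile. In P300 replicate 2 the same shares were 23.6%, 33.1% and 62.5%. Regions of all 8 libraries hold YY1 by definition and made up 52 of 132 and 48 of 128 regions in the top deciles. Leaving them out gave 38.8% and 40.0% there. Outside that set the top decile did not stand apart: the highest shares were 47.3% in the third decile from the bottom of P300 replicate 1 and 45.3% in the fourth of P300 replicate 2. The ninth decile was also where the crowded windows were most frequent, with 60.3% and 66.9% of its P300 regions, against 1.53% and 4.72% in the lowest decile.

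**Figure D3:**
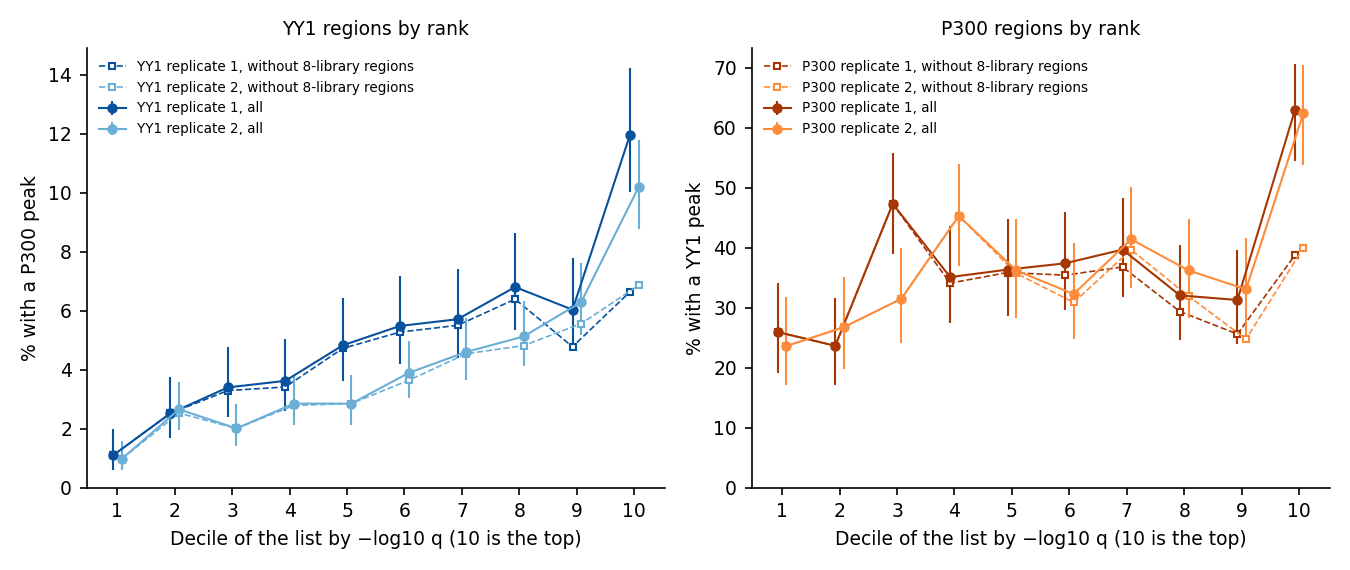
Share of regions held by the other antibody, by decile of the list ranked on −log10 q (10 is the top), for each mutant library, with all regions and without those of all 8 libraries. The top deciles of P300 reach 62.9% and 62.5% with all regions and 38.8% and 40.0% without that set, and those of YY1 12.0% and 10.2%.

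The width of a P300 peak went along with the presence of YY1. In P300 replicate 1, YY1 was present at 25.4% of regions up to 150 bp wide, 35.4% of those over 150 and up to 200 bp, 48.1% of those up to 300 bp, 69.5% of those up to 400 bp and 38 of 39 (97.4%, 86.8 to 99.6) of the wider ones. P300 replicate 2 gave 21.9%, 36.3%, 55.0%, 67.2% and 37 of 45 (82.2%, 68.7 to 90.7). The share was higher at each wider class in both libraries. Without regions of all 8 libraries, 15 of 16 (93.8%) and 13 of 21 (61.9%) of the widest class held YY1. A wider peak offers more bases to overlap, and its part in this gradient was not tested.

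Median P300 widths were 180 and 185 bp with YY1 and 154 and 151 bp without. The YY1 lists showed a smaller gradient by width. P300 was present at 4.01% of YY1 regions up to 200 bp and 6.88% of those over 500 bp in replicate 1, and at 3.02% and 6.43% in replicate 2. Wide YY1 peaks were therefore common without P300, while P300 peaks over 300 bp were mostly found with YY1. The P300 lists are far shorter than the YY1 lists, which bears on this contrast. The part of list length in it was not tested.

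**Figure D4:**
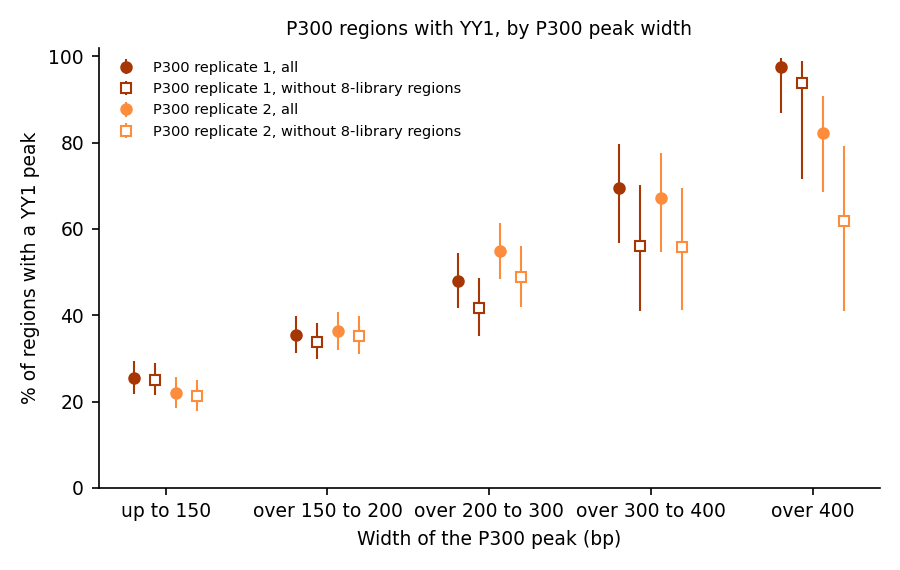
Share of P300 regions held by YY1 in each class of P300 peak width (bp), for both mutant P300 libraries, with Wilson 95% intervals, for all regions and without those of all 8 libraries. The share goes from 25.4% and 21.9% in the narrowest class to 97.4% and 82.2% in the widest.

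Regions of all 4 libraries had high median ranks in every list. On a scale where 100 is the strongest peak, their median percentiles were 88.2 and 91.5 in the YY1 lists and 83.1 and 84.4 in the P300 lists. Regions of both YY1 libraries without P300 had medians of 65.7 and 77.3, and regions of both P300 libraries without YY1 had medians of 76.8 and 75.8. Of the 134, 66 and 70 were in the top decile of the YY1 lists, 57 and 54 in that of the P300 lists, and 43 in all of them. Some ranked low: the lowest percentiles were 1.09 and 2.78 in the YY1 lists and 8.32 and 14.5 in the P300 lists. In at least 1 P300 list, 31 of the 134 were below a percentile of 50, and 29 of these were not held by all 8 libraries.

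The regions of all 8 libraries ranked highest. Their medians were 98.1, 98.3, 94.4 and 93.9 (YY1 replicates 1 and 2, then P300 replicates 1 and 2). The other 58 had medians of 71.4, 77.4, 64.4 and 63.0. In the P300 lists the 58 thus ranked below the P300 regions without YY1 as a whole, but close to the 115 of these outside the crowded windows, whose medians were 66.5 and 66.3. In the YY1 lists they ranked at or slightly above the YY1 regions without P300. Only 5 of the 43 regions in every top decile were among the 58.

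Ranks of the 2 antibodies followed each other across regions to differing degrees. Spearman's rho between the mean YY1 and the mean P300 percentile was 0.72 over the 134 regions, 0.79 over the 76 of all 8 libraries and 0.23 over the other 58. Between YY1 replicates the last value was 0.71 and between P300 replicates 0.59. These correlations run across regions that share their libraries, and are given as descriptions. The mean YY1 percentile was above the mean P300 percentile in 94 of the 134 regions. Percentiles are taken within each list, and the YY1 lists were longer, which bears on this count. The part of list length in it was not tested.

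**Figure D5:**
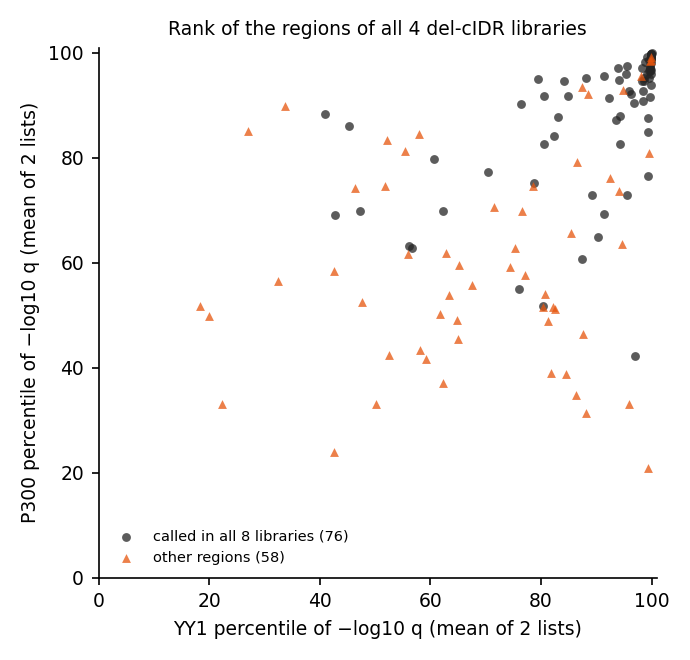
Mean percentile of −log10 q in the YY1 lists against that in the P300 lists for the 134 regions of all 4 mutant libraries (100 is the strongest). Many of the 76 regions of all 8 libraries lie in the upper right corner, with medians of 93.9 to 98.3 per list, and the other 58 spread over the plot with a rho of 0.23.

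Where all libraries called a region, their summits lay close together. The median distance between a YY1 and a P300 summit was 34.5 to 42.5 bp over the 4 pairings, against 32 bp between YY1 replicates and 26.5 bp between P300 replicates. Among the 58 regions outside the set of all 8 it was 45 to 67.5 bp, against 49 and 48 bp between replicates. The regions were chosen because peaks of all 4 libraries meet there, which by itself keeps the summits close, so these distances are a description. Of the 134 pairs of summits, 89 to 97 were within 100 bp between antibodies, 105 between YY1 replicates and 109 between P300 replicates.

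Widths in these regions depended on the set. Over all 134, median widths were 351 and 289 bp for YY1 and 257 and 251.5 bp for P300. Both YY1 peaks were wider than both P300 peaks in 47 regions, and both P300 peaks wider in 40. In the set of all 8 libraries these counts were 18 and 33, and in the other 58 regions 29 and 7. The width order of the whole lists thus held in most decided cases outside the set and not within it.

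The strongest common regions were few in place. The 10 with the best mean percentile lay on 4 chromosomes, and 9 of them were held by all 8 libraries. First was chr2:98496594-98497677, with fold enrichments of 23.5 and 29.3 for YY1 and 19.6 and 17.7 for P300, the top peak of every list. The region chr6:103626013-103626254 had folds of 51.0 and 62.6 for YY1 and 72.4 and 71.1 for P300. At chr9:35216512-35216887 the folds were 42.1 and 50.4, and 55.2 and 54.6. At chr12:3159872-3160121 they were 50.6 and 59.5, and 76.8 in both P300 libraries. Each of these ranked near the top of all 4 lists and was also called in every WT list. No control library is known, and whether the signal there is specific to YY1 or P300 was not tested. A further 5 of the 10 lay within chr9:3000301-3024631.

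Outside the set of all 8 libraries, some regions were chosen as examples after their values were seen. The region chr17:15210343-15211045 had folds of 21.3 and 21.5 for YY1 and 7.79 and 8.46 for P300, with widths of 615, 646, 441 and 473 bp. At chr8:15569814-15570060 the folds were 12.8 and 23.7 for YY1 and 26.3 and 28.1 for P300. The first was wider in both YY1 libraries than in both P300 libraries. Of the 58 regions, WT YY1 libraries held 19 and 41 and WT P300 libraries 28 and 40, and 4 were in no WT list. Over all 134 regions of the 4 mutant libraries, these counts were 95 and 117 for YY1 and 104 and 116 for P300. The 58 were set apart because not every WT library held them, so their lower WT presence follows in part from that choice.

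Regions of YY1 without P300 were mostly distant from P300. The 5287 regions lay at a median of 350 kb from the nearest P300 summit of either library, with 59 (1.12%) within 1 kb and 177 (3.35%) within 10 kb, and 28 (0.530%) in the crowded windows. Their median folds were 5.69 and 6.33, and 791 and 1322 of them were in the top decile of the YY1 lists. In WT cells, YY1 libraries held 2159 (40.8%) and 3115 (58.9%) of them and P300 libraries 113 (2.14%) and 209 (3.95%). The WT libraries had no part in choosing these regions. The WT YY1 lists, with 3519 and 5833 peaks, are longer than the WT P300 lists, with 1452 and 2474, which bears on these counts. Of the 12831 regions of a single YY1 library alone, WT YY1 libraries held 3.67% and 8.74% and WT P300 libraries 1.15% and 2.15%.

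The 10 strongest YY1 regions without P300 lay on 10 chromosomes, with folds of 11.0 to 27.4. The first, chr11:51579602-51580228, had folds of 15.7 and 20.9 and widths of 539 and 619 bp, with the nearest P300 summit 658 kb away. At chr17:33904013-33904366 the folds were 24.6 and 25.2 and the nearest P300 summit was 1191 kb away. The third, chr8:71326184-71326619, had folds of 18.98 and 23.5, and P300 was 80.8 kb away. Over the 10, the nearest P300 summit was 23.2 to 4834 kb away. Both WT YY1 libraries and neither WT P300 library held each of the 10.

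Regions of P300 without YY1 lay nearer to the other antibody. The 228 regions were at a median of 9.40 kb from the nearest YY1 summit of either library, 34 (14.9%) within 1 kb and 117 (51.3%) within 10 kb. The YY1 lists are longer, which bears on this distance. Crowded windows held 113 (49.6%) of the 228, and there the median distance was 7.43 kb, against 14.1 kb for the other 115. In WT cells, P300 libraries held 154 (67.5%) and 159 (69.7%) of the 228 and YY1 libraries 22 (9.65%) and 26 (11.4%). Of the 1171 regions of a single P300 library alone, WT P300 libraries held 14.2% and 22.5% and WT YY1 libraries 2.39% and 4.70%.

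These P300 regions were narrow, as were the P300 lists as a whole. The regions had median widths of 162.5 and 164 bp, against 160 and 161 bp in the whole P300 lists. YY1 regions without P300 had medians of 349 and 368 bp. Median folds of the P300 regions without YY1 were 6.57 and 6.47. The 10 strongest lay on 6 chromosomes, 6 of them in crowded windows, with widths of 133 to 285 bp, folds of 3.57 to 47.9 and YY1 summits at 0.381 to 32.3 kb. First was chr9:3015259-3015462, with folds of 27.7 and 27.1 and YY1 8.16 kb away. The region chr4:70296360-70296493 had folds of 41.3 and 44.1 in peaks of 133 and 134 bp, 32.3 kb from the nearest YY1 summit. At chr13:77587028-77587176 the folds were 42.6 and 47.9 and YY1 was 9.91 kb away. The fourth, chr14:3052647-3052786, had folds of only 4.55 and 4.49, with YY1 0.381 kb away. Each of the 10 was in both WT P300 lists and in no WT YY1 list.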

How the data were processed

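CUT&RUN for YY1 and P300 was analysed in mutant cells (2 libraries each), with WT libraries for comparison. Each library has its own peak list, so replicates were not pooled. Per the submitters' processing notes, the tools were MACS2, BWA, fastp, Picard, SAMtools and featureCounts and the build GRCm39, without roles or versions. As to a control library, none is named: its use was not given in the sources used here. Each deposited peak has a score by the authors, a fold enrichment (ratio), a −log10 p and a −log10 q value. They were used to rank and filter peaks within a list, and folds are printed to describe single lists and regions. A library's score equalled 10 times −log10 q without decimals in at least 99.8% of its peaks.

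Peaks off chromosomes 1 to 19 and X were left out (0.683% and 0.875% of YY1, 7.94% and 10.0% of P300 peaks). Positions count from 1. Read depth is unknown, and Wilson 95% intervals cover counting error only. No 2 lists shared more than 23 identical intervals. Scripts in Python 3.11.15 (pandas 2.3.3, numpy 2.4.6) were tested on simulated data. Values per library were compared by two-sided exact permutation, and the smallest p-values possible were 0.33 (antibodies) and 0.056 (genotypes), so no test could pass 0.05. The 30 comparisons of antibodies had a smallest adjusted p of 0.385.

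Regions are peaks merged at 1 bp of overlap. Classes were summarised by the 10 regions whose −log10 q percentile, averaged over the lists holding them, was best, and the first 3 or 4 of each are named. Examples outside the set of all 8 libraries were chosen after their values were seen. Members and lists were chosen with earlier results of these data known. Alternatives were a −log10 q of at least 5, equal list length, overlap of 50% of the shorter peak, chromosome Y included, regions of all 8 libraries or crowded windows left out, presence in at least 1 library, and each library left out.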

Additional observations from a re-analysis of the deposited data

How the results depend on the processing

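Peak number (9 alternatives) and median width (10) kept their direction in every alternative run, but no test could pass 0.05 in this design. Both counts include the replicate block described below, which leaves the difference unchanged by construction. The log2 difference in spacing reversed to 0.42 at equal length and to 1.37 when only peaks of −log10 q 5 or higher were used. Both settings keep fewer peaks by construction. Under the q cutoff the lists stayed unequal, with 7.83 times as many YY1 as P300 peaks, and the cause of that reversal was not tested. The mean median distance from YY1 to P300, 613 kb, became 3149 kb at a −log10 q of at least 5 and 534 kb at equal length. The mean median percentile of regions of all 4 libraries, 86.8, became 92.1 at a −log10 q of at least 5, 95.3 at equal length and 71.1 without regions of all 8 libraries, and ranged from 74.1 to 82.9 with each library left out. The share of YY1 regions with P300, 2.36%, became 2.93% at a −log10 q of at least 5, 7.21% at equal length, 1.04% without regions of all 8 libraries, 1.79% without crowded windows and 3.87% with presence in at least 1 library, and ranged from 1.28% to 4.54% with each library left out. The share of P300 regions with YY1, 29.3%, became 13.4% at equal length, 15.3% without regions of all 8 libraries, 35.2% without crowded windows and 34.3% with presence in at least 1 library, and ranged from 19.6% to 43.0% with each library left out. Leaving out regions of all 8 libraries lowers both overlap shares by construction. For the other changes, where construction does not show it, the cause was not tested. With replicate numbers as a replicate block, the differences were the same (log2 peak number 3.19, width 92 bp, log2 spacing −2.88), with an exact permutation p of 0.5, the smallest possible. The labels do not say that equal numbers share a source: replicate 1 minus 2 in log2 peak number was −0.76 for YY1 and 0.04 for P300.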

Other observations

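Chromosomes differed in their share of the peaks. Both P300 shares were above both YY1 shares on 5 chromosomes (4, 8, 9, 13 and 14), below on 14, and overlapped on 1. Shares within a list depend on each other, so higher shares on some chromosomes go with lower shares on others. On chromosome 8, 11.1% and 11.5% of P300 peaks and 5.25% and 5.46% of YY1 peaks were found. With the crowded windows left out, these were 5.80% and 6.26% for P300 and 5.06% and 5.32% for YY1, so most of that gap lay inside the windows. The windows were chosen for their P300 peaks, so the smaller gap follows in part from that choice. Over all chromosomes outside the windows, P300 shares were above on 5, below on 7 and overlapping on 8.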
